A study of Homo sapiens with 8 samples.

Results

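The γH2AX regions described here lie on the short arm of chromosome 16, from 14 Mb up to the gap that stands for the centromere in hg19. Members were chosen by position: every region on chromosome 16 with its midpoint from 14 Mb to below 36 Mb, an interval proposed with the region counts of these lists known. There were 2505 of them among 53169 regions on chromosomes 1 to 22 and X. Of the 9709 untreated regions 502 were members (5.17%), of the 25671 cisplatin regions 1096 (4.27%) and of the 17789 Pt-ttpy regions 907 (5.10%). These members made up 78.1%, 72.5% and 73.7% of the chromosome 16 regions of their lists.

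The cells were A2780, an established human ovarian carcinoma line. Chromatin was immunoprecipitated with an antibody against γH2AX and sequenced from untreated cells, from cells given cisplatin for 96 hours and from cells given Pt-ttpy for 96 hours. Cisplatin crosslinks DNA bases. Pt-ttpy is a platinum complex with affinity for G-quadruplexes, folded structures of guanine-rich DNA. Each drug was used at its own IC80, and each of these groups had 2 samples, as did an input group of untreated cells without immunoprecipitation, which was not analysed here. The labels tie both samples of a group to 1 peak list, so the values below have no replicates, no test between conditions was possible, and differences are between lists. The lists carry no read totals, which leaves the depth unknown.

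γH2AX is histone H2AX phosphorylated by the kinases of the DNA damage response. It spreads along the chromatin on both sides of a break and serves as a landing platform for repair factors. Human 16p is known for large segmental duplications, long segments present in several near-identical copies. Recombination between such copies gives rise to recurrent microdeletions and microduplications of 16p11.2 and 16p12. Centromeric DNA is made of alpha satellite arrays, and the assembly represents it by a gap.

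The members were split by position into a stretch from 14 to 31 Mb, which the working name of the set calls the 16p13-p12 duplications, and a flank from 32 to 36 Mb next to the centromere gap. By general knowledge of the bands, the stretch reaches into 16p11.2 as well. The lists carry no annotation of duplications, so whether a region lies in a duplicated segment was not checked. The name "centromere" also needs a limit: all members of the flank ended by 35285540 and none lay in the gap. The last regions before the gap ran from 35285367 to 35285485 in the untreated, from 35285365 to 35285526 in the cisplatin and from 35285361 to 35285540 in the Pt-ttpy list. The next regions started on the other side of the gap, at 46385792, 46385795 and 46385798.

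The flank held nearly all members. It had 495 untreated, 995 cisplatin and 851 Pt-ttpy regions, or 124, 249 and 213 per Mb. The stretch had 7, 101 and 55 regions, that is 0.412, 5.94 and 3.24 per Mb, although it is 17 Mb long against 4 Mb. The flank was therefore 301 times as dense without drug, 41.9 times after cisplatin and 65.8 times after Pt-ttpy. The untreated value depends on peak numbers that are missing from that list, described further on: with them added it lies between 58.8 and 89.2, a range that holds the Pt-ttpy value. The 4 Mb run past the last region of the flank, and no list had a region in that part, which lowers the flank values per Mb. With the flank measured to the end of its last region, the density ratios as deposited were 365.9 for untreated, 50.97 for cisplatin and 80.06 for Pt-ttpy. These densities come from the positions that chose the members and are a description. From 31 to 32 Mb there was a single region, in the Pt-ttpy list, at 31841146 to 31841255.

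**Figure D1:**
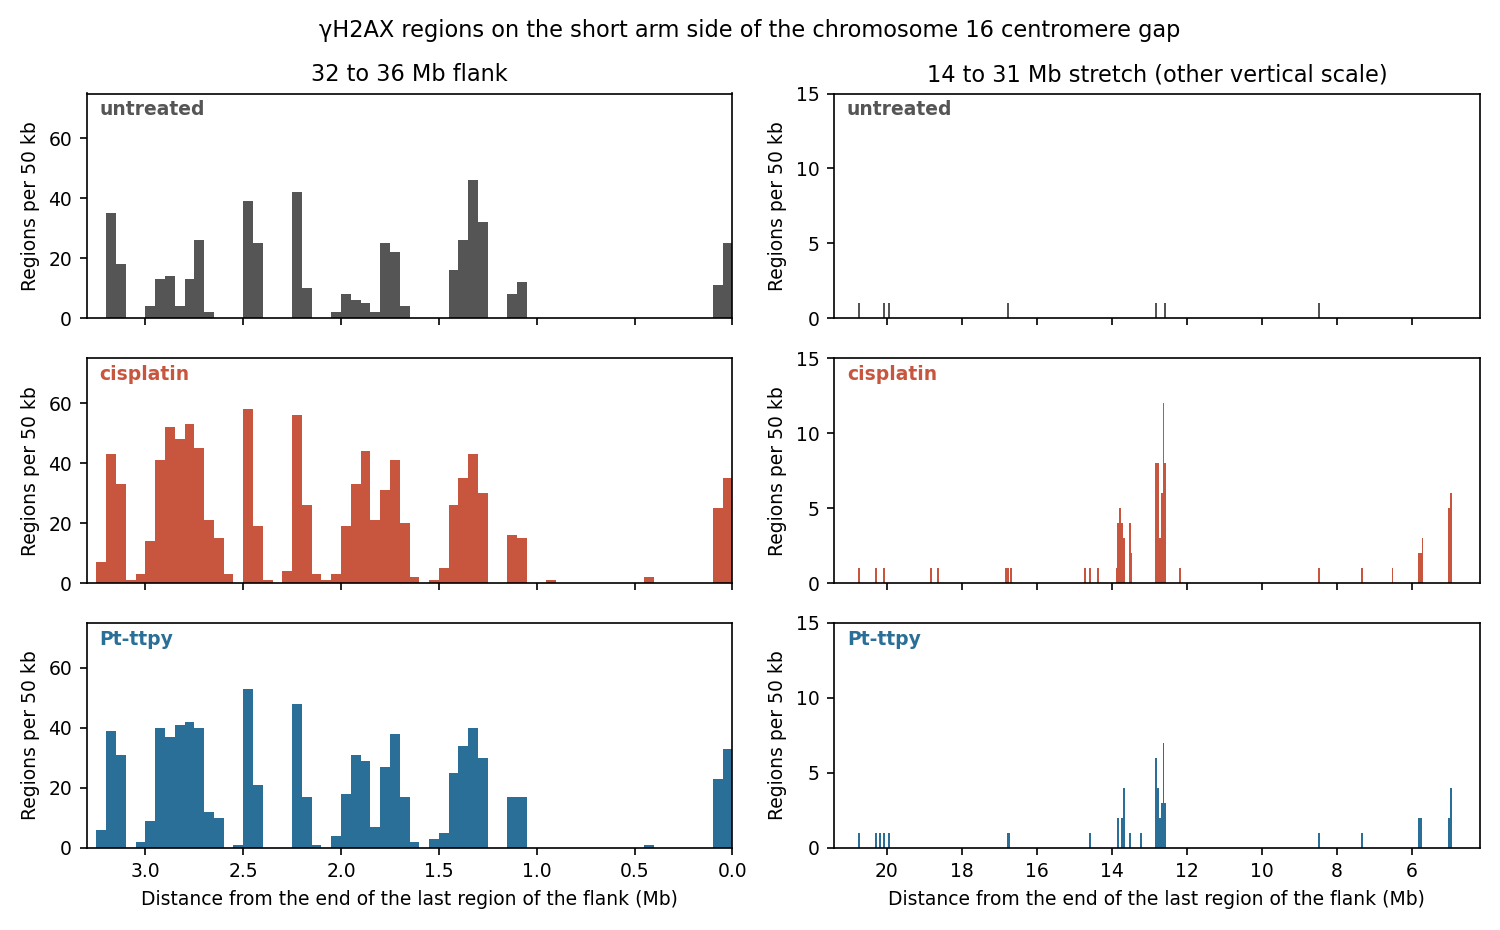
Number of γH2AX regions per 50 kb (vertical axis) against the distance in Mb from the end of the last region of the flank (horizontal axis, centromere gap to the right), for the untreated, cisplatin and Pt-ttpy lists from top to bottom. The flank (left) reached 46, 58 and 53 regions per 50 kb, and the stretch (right, on another vertical scale) 1, 12 and 7.

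Regions of the flank were not spread evenly. Joining loci that lie within 100 kb of each other, a distance chosen after the data were seen, gave 3 blocks of at least 5 loci there. A locus is a place covered by overlapping regions of 1 or more lists. The first block ran from 32041247 to 34023001 and held 439 untreated, 901 cisplatin and 760 Pt-ttpy regions. The second, from 34173975 to 34196948, was only 22.97 kb long and held 20, 31 and 34. The third, from 35194294 to 35285540 at the very edge of the gap, held 36, 60 and 56. Between this block and the one before, over 997 kb, there were 0 untreated regions, 3 cisplatin regions and 1 Pt-ttpy region. The small second block was the densest, with regions covering 19.6% of its length without drug, 48.6% after cisplatin and 45.6% after Pt-ttpy. In the first block the covered shares were 6.16%, 16.7% and 14.7%, and at the gap edge 6.73%, 13.7% and 12.8%.

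By highest fold, the strongest part of the flank was a short piece around 33.9 to 34.1 Mb, and its counts were nearly equal in all 3 lists. Counts were 80 untreated, 81 cisplatin and 77 Pt-ttpy from 33.9 to 34 Mb, and 22, 21 and 23 from 34 to 34.1 Mb. Covered length differed more in the first of these windows, with 45.7, 60.6 and 57.2 kb. Fold enrichment is given here as deposited, over the background of the list itself. In the flank 104 of 495 untreated regions had their deposited summit outside the region, so their folds refer to a summit outside it. The fold does not set an order of signal between lists, because each list has its own background, and median folds over whole lists were 5.71 for untreated, 3.64 for cisplatin and 3.91 for Pt-ttpy. In the window from 33.9 to 34 Mb the median folds were 10.4, 6.75 and 6.62, each above the median of its list. From 34 to 34.1 Mb they were 6.62, 6.58 and 5.98. This untreated median was below the 8.57 from 33.8 to 33.9 Mb and the 8.27 from 35.2 to 35.3 Mb. The cisplatin and Pt-ttpy medians were above those of both windows. Input was not analysed, so whether it is also high at these places was not tested.

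The region with the highest -log10 q of the untreated members lay at 33962995 to 33964205, with a fold of 57.4. The matching region ran from 33962924 to 33964216 after cisplatin (fold 31.3) and from 33962895 to 33964214 after Pt-ttpy (fold 25.8), where it was the first of its list's members too. Among cisplatin members the first was the region at 33958532 to 33960978, with a fold of 34.3. In both other lists this place was called as 2 pieces, with highest folds of 53.8 in the untreated and 25.6 in the Pt-ttpy list. Another place, at 33950120 to 33950714 in the cisplatin list, had folds of 47.2 untreated, 31.8 cisplatin and 25.2 Pt-ttpy. All of the 3 regions of highest -log10 q of each list in the flank overlapped regions of both other lists. Of the 100 regions of highest -log10 q in each whole list, 7 untreated, 4 cisplatin and 4 Pt-ttpy regions were members. These counts were near the share of members in the whole lists, which was 5.17%, 4.27% and 5.10%. The other side of the gap, from 46 to 51 Mb, also held 7, 4 and 4 of them.

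The widest members were called in more pieces without drug. After cisplatin the widest ran from 33971905 to 33978108, a width of 6204 bp. After Pt-ttpy the same place gave 2 regions, the larger at 33971903 to 33977882 (5980 bp). The untreated list had 4 pieces there, covering 5329 bp, of which the largest was 4527 bp at 33972669 to 33977195. The widest Pt-ttpy member was at 33981490 to 33988494 (7005 bp), where the cisplatin list had 2 regions covering 6928 bp and the untreated list 5 pieces covering 6229 bp. The place from 33534800 to 33540154 was 1 region of 5355 bp after cisplatin, 1 region of 5327 bp after Pt-ttpy and 5 pieces covering 4503 bp in untreated cells. Of the flank regions, 64 cisplatin and 63 Pt-ttpy regions each spanned 2 or more untreated pieces, and at most 6 and 7 pieces. In the flank 35 untreated peak numbers were on more than 1 piece, so pieces are not all separate peak numbers. How many of the pieces counted here share a number was not counted.

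Median widths in the flank were 158 bp for untreated, 218 bp for cisplatin and 211 bp for Pt-ttpy regions. In the stretch they were 113, 138 and 139 bp, and over whole lists 164, 169 and 185 bp. Of the flank regions 18 untreated (3.64%), 48 cisplatin (4.82%) and 56 Pt-ttpy regions (6.58%) were wider than 1 kb, shares near the 4.65%, 4.39% and 5.92% of the whole lists. The stretch had 0 such regions in each list. The untreated widths have a limit. In the flank 93 untreated regions were shorter than 101 bp, the least width in both treated lists, and 35 untreated peak numbers were on more than 1 piece. Without the regions under 101 bp the untreated median in the flank was 191.5 bp. At loci of the flank with exactly 1 region in both lists, the cisplatin region was the wider in 228 of 249 pairs with the untreated list, and the Pt-ttpy region in 220 of 242.

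**Figure D2:**
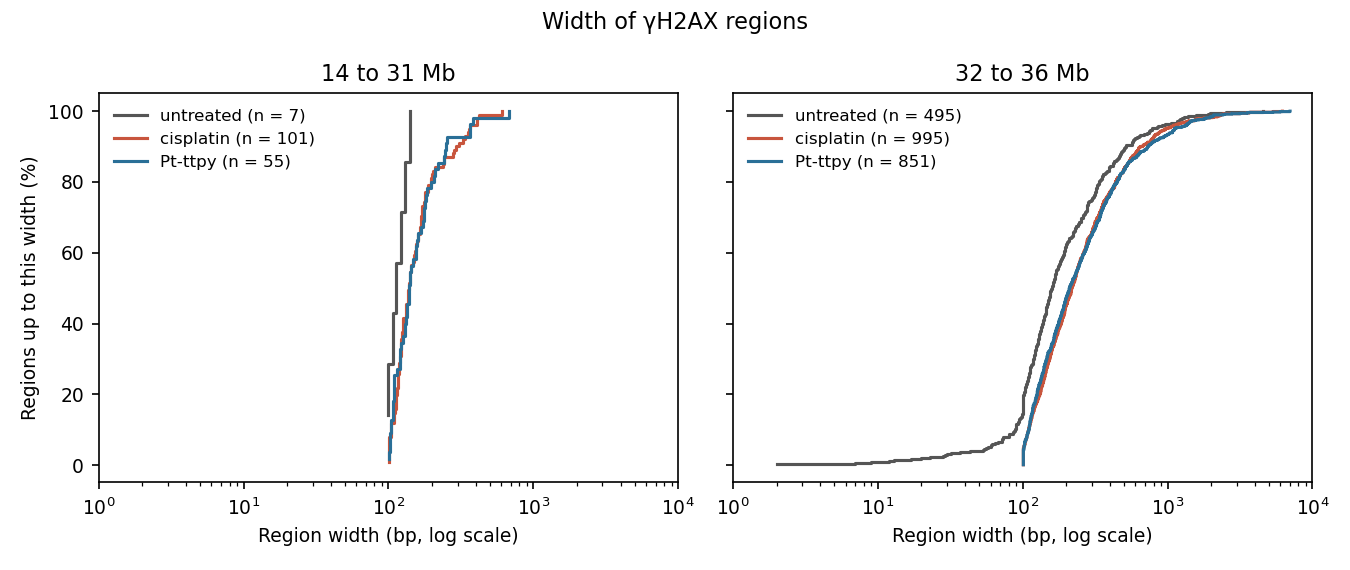
Share of regions (vertical axis, %) up to a given width (horizontal axis, bp, log scale) in the 14 to 31 Mb stretch (left) and the 32 to 36 Mb flank (right), 1 line per list. The untreated line of the flank starts below 101 bp, where 93 short pieces lie, and the lines of both drugs run close together with medians of 218 and 211 bp.

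Regions of the flank lay close together. From one region to the next the median distance was 558 bp without drug, 401.5 bp after cisplatin and 426.5 bp after Pt-ttpy, and 66.8%, 75.3% and 71.9% of the distances were under 1 kb. In the stretch the median distance was 6228 bp for cisplatin and 12260.5 bp for Pt-ttpy.

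In other windows of the flank the counts differed between the lists more than in the strongest piece. In that piece some treated regions spanned several untreated pieces, so nearly equal counts are not equal covered length. Counts from 32.4 to 32.5 Mb were 19 without drug, 95 after cisplatin and 78 after Pt-ttpy. From 32.5 to 32.6 Mb, the densest window of both treated lists, there were 37, 99 and 81. From 33.3 to 33.4 Mb there were 15, 69 and 60, and from 33.4 to 33.5 Mb 4, 51 and 27. Median folds in these 4 windows were at or below those of the whole lists, from 3.46 to 3.64 after cisplatin and from 3.39 to 3.65 after Pt-ttpy. From 32.8 to 32.9 Mb, by contrast, the counts were 58, 64 and 65, with median folds of 6.16, 4.93 and 4.81. Of the 40 windows of 100 kb in the flank, 18 held regions of all 3 lists and 14 held none. The empty ones include all windows from 35.3 Mb on, which lie past the last region before the gap.

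Part of the untreated list's peak numbers is absent from these windows. Peak numbers in the untreated list follow the order of position and reach 18049, of which 8848 are not in the file. Where missing numbers fall can be bracketed by the retained neighbours. Inside the flank 268 numbers were missing beside 452 in use, so 720 numbers stand against 995 cisplatin and 851 Pt-ttpy regions. The count ratios to untreated were 2.01 for cisplatin and 1.72 for Pt-ttpy as deposited, and 1.38 and 1.18 with these numbers added. Whole lists gave 2.64 and 1.83 as deposited, and 1.45 and 1.01 over all chromosomes against all untreated numbers. As deposited, both flank ratios were below those of the lists. With the numbers added, that of cisplatin was still below and that of Pt-ttpy above. At least 23 numbers were missing from 32.4 to 32.5 Mb, 24 from 32.5 to 32.6 Mb, 22 from 33.3 to 33.4 Mb and 16 from 33.4 to 33.5 Mb, against 13 from 33.9 to 34 Mb. The sources used here do not say why.

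In the stretch, regions gathered in 5 blocks by the same joining rule, and nearly all regions in these blocks came from treated cells. The first block, from 21422093 to 21590747, held 0 untreated, 17 cisplatin and 8 Pt-ttpy regions. The second, from 21741422 to 21817780, held 0, 6 and 1. The largest, from 22449846 to 22710468, held 2, 45 and 25. Another pair of blocks lay nearer to the centromere, by general knowledge of the bands in 16p11.2. One ran from 29448367 to 29549474 with 0, 7 and 4 regions, the other from 30246217 to 30297486 with 0, 11 and 6.

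The blocks together held 86 of 101 cisplatin (85.1%) and 44 of 55 Pt-ttpy regions (80%) of the stretch. The 1 Mb windows from 21 to 23 Mb alone held 68 cisplatin and 35 Pt-ttpy regions. Elsewhere in the stretch cisplatin gave 2.2 regions per Mb and Pt-ttpy 1.33. Of 17 windows of 1 Mb, 12 were empty without drug, 4 after cisplatin and 7 after Pt-ttpy. Between the second block and the largest lay 632 kb with a single region, of Pt-ttpy, at 22059998 to 22060099.

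Block regions were close to the calling limit. The median fold was 3.29 after cisplatin and 3.39 after Pt-ttpy, where the lowest folds of the lists are 2.60 and 2.62. The highest fold in any of the 5 blocks was 5.54 for cisplatin, at a region in the largest block, and 4.69 for Pt-ttpy. Both untreated regions of the largest block, at 22464015 to 22464145 (fold 3.61) and 22691269 to 22691367 (fold 4.21), had their deposited summit outside the region itself, so those folds refer to a summit outside it. Between this pair, 10 untreated numbers were missing, where the cisplatin list placed 37 and the Pt-ttpy list 19 regions. A further 11 were missing between 18519938 and 22464015, an interval that takes in the first and second blocks, and 15 between 26821322 and 32094137.

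**Figure D3:**
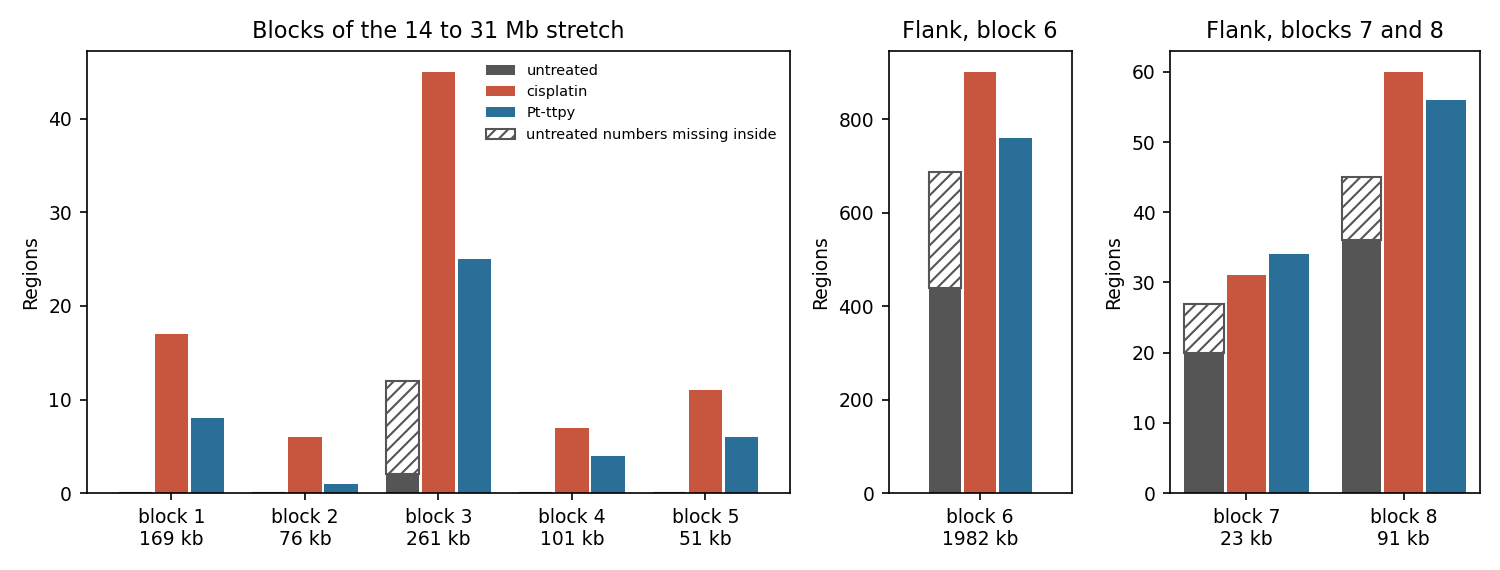
Regions (vertical axis, count) in the 5 blocks of the stretch (left), in the large block of the flank (middle) and in both small blocks of the flank (right), by list, with block length below each and blocks numbered from the 14 Mb end. Hatched parts show untreated peak numbers that are missing with both neighbours inside the block (10 in block 3 and 247 in block 6). Vertical scales differ between panels.

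A second kind of member in the stretch lay outside the blocks, and the strongest of these were called with and without drug. There were 19 such loci, and 4 of them were in all 3 lists. The locus at 18519795 to 18519954 had folds of 13.8 untreated, 13.5 cisplatin and 10.9 Pt-ttpy, the highest of the stretch in both treated lists. The locus at 14580872 to 14580994 had folds of 15.3, 10.4 and 8.30. It is also the first member above the limit of 14 Mb in each list. The last regions below that limit lay at 12109522 to 12109622 in the untreated, 12978720 to 12978913 in the cisplatin and 12109521 to 12109622 in the Pt-ttpy list.

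The locus at 26821210 to 26821329 had folds of 12.0, 6.92 and 6.11, and that at 15214777 to 15214893 had 6.92, 5.02 and 4.94. These regions were narrow, from 105 to 160 bp in each list. Edges differed by some bases between lists: the region at 26821210 to 26821322 without drug ran from 26821212 to 26821329 after cisplatin and from 26821215 to 26821329 after Pt-ttpy. At 18519795 the ends lay at 18519938, 18519954 and 18519952. The locus at 27958818 to 27958936 was in both treated lists, with folds of 5.19 for cisplatin and 5.07 for Pt-ttpy, and in the untreated list it had no region. The locus at 15379564 to 15379684 was in the untreated list (fold 5.41) and the Pt-ttpy list (fold 4.04) and not in the cisplatin list. Of the remaining loci outside the blocks, 8 were in the cisplatin list alone and 3 in the Pt-ttpy list alone, with folds of at most 3.98 and 3.01.

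The flank was like the whole untreated list in how many of its regions were called again after a drug. Of 495 untreated regions, 474 (95.8%) overlapped the cisplatin list by at least 1 bp, and 474 (95.8%) the Pt-ttpy list. Over the whole untreated list these shares were 96.1% and 95.1%. When at least 50% of both regions had to overlap, the flank shares were 36.6% and 40.6%, and shares over the whole list were not counted. Conversely, an untreated region lay under 372 of 995 cisplatin regions (37.4%) and under 375 of 851 from Pt-ttpy (44.1%), where the whole lists gave 27.3% and 39.5%. In the stretch 5 of 7 untreated regions lay on a cisplatin and 6 on a Pt-ttpy region. Only 5 of 101 cisplatin (4.95%) and 6 of 55 Pt-ttpy regions (10.9%) of the stretch lay on an untreated region. Regions behind the missing untreated numbers cannot enter these shares. As deposited, the stretch and the flank stood on opposite sides of the whole-list shares for treated regions on untreated ones.

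Flank regions off the untreated list were lower in fold and narrower than those on it. A wider region overlaps by at least 1 bp more easily, so the difference in width is partly set in advance. The same medians were not taken over whole lists. For cisplatin the 623 regions off the list had a median fold of 3.64 and a median width of 171 bp, against 6.06 and 362 bp for the 372 on it. For Pt-ttpy the 476 off the list had 3.52 and 152.5 bp, against 5.85 and 365 bp for the 375 on it. A -log10 q of at least 5 was reached by 45.1% of these cisplatin and 42.0% of these Pt-ttpy regions off the list. It was reached by 63.5% of all cisplatin and 64.3% of all Pt-ttpy regions of the flank, against 46.9% and 57.6% of whole lists. In the stretch the shares were 28.7% and 30.9%. Untreated regions reached it in 71.9% of the flank, against 73.9% of their list.

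Overlap between the drug lists was higher in the flank than in the stretch, and the whole lists lay between. In the flank 690 of 995 cisplatin regions (69.3%) overlapped the Pt-ttpy list and 689 of 851 Pt-ttpy regions (81.0%) the cisplatin list. In the stretch 27 of 101 cisplatin (26.7%) and 27 of 55 Pt-ttpy regions (49.1%) did so. Whole lists gave 47.8% and 69.9%. When at least 50% of both regions had to overlap, the shares were 43.1% and 50.4% in the flank and 15.8% and 29.1% in the stretch. With the same number of top regions per list, the flank shares were 80.6% and 80.5%, and those of the stretch 50% (8 of 16) and 61.5% (8 of 13). Overlap was higher among regions of higher -log10 q. In the flank 86.1% of those cisplatin regions with a -log10 q of at least 5 overlapped one from Pt-ttpy, against 40.2% of those below it. For Pt-ttpy regions on cisplatin the shares were 92.3% and 60.5%. In the stretch they were 41.4% and 20.8% for cisplatin, and 58.8% and 44.7% for Pt-ttpy. Widths differed too. In the flank, medians at or above and below this limit were 287 and 167 bp for cisplatin, 275 and 169.5 bp for Pt-ttpy. In the stretch they were 123 and 141.5 bp, and 122 and 149.5 bp. Cisplatin regions covered 8.85% of the flank and 0.101% of the stretch, and Pt-ttpy regions 7.84% and 0.055%. Whether width or covered share accounts for the overlap was not tested. Shares by -log10 q, with the stricter overlap and with equal list length were not taken over all regions.

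Counted as loci, the flank had 1077 places. Of these 331 (30.7%) were in all 3 lists, 271 (25.2%) in both treated lists without an untreated region, 297 (27.6%) in the cisplatin list alone and 156 (14.5%) in the Pt-ttpy list alone. The remaining classes, all with an untreated region, had 8 or fewer loci each. The stretch had 128 loci, of which 5 (3.91%) were in all 3 lists, 20 (15.6%) in both treated lists, 74 (57.8%) in the cisplatin list alone and 27 (21.1%) in the Pt-ttpy list alone. In the flank, loci of the cisplatin list alone had a median fold of 3.46, those of both drugs 3.98 and those of all 3 lists 6.23 in the cisplatin list. The Pt-ttpy folds went from 3.33 for the list alone to 3.78 and 5.98. Locus classes were not counted over whole lists, so no share over all regions stands beside them. The lists differ in length, with 9709 untreated, 25671 cisplatin and 17789 Pt-ttpy regions. Places behind the missing untreated numbers, 268 inside the flank, cannot count as having an untreated region. How far this sets the classes was not tested.

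**Figure D4:**
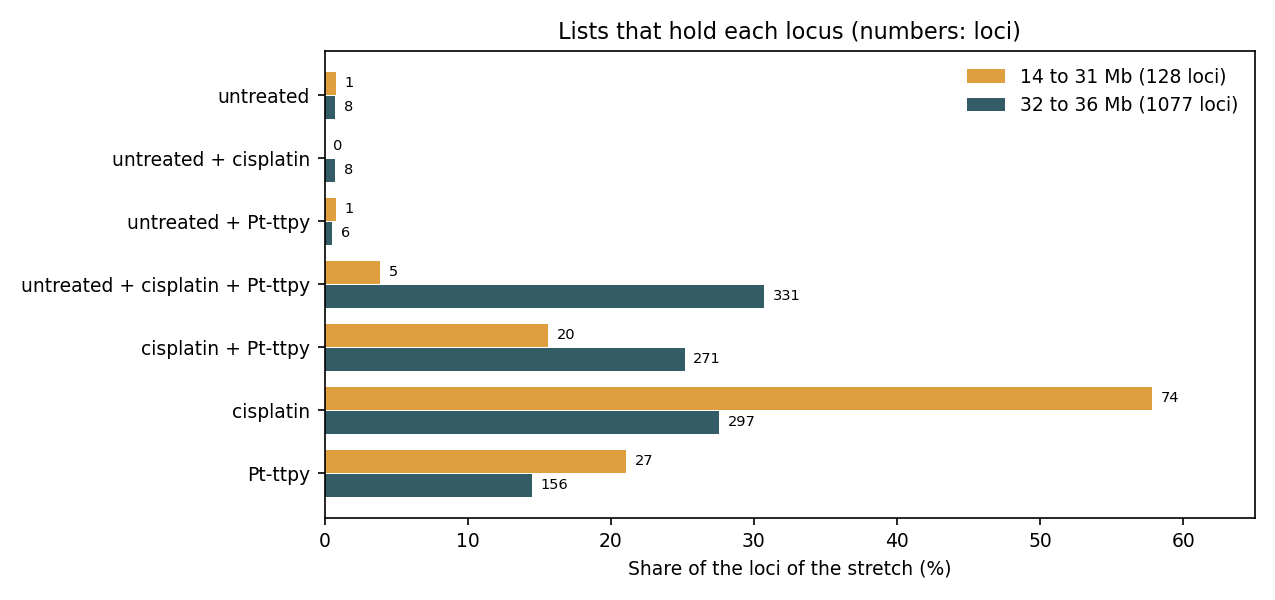
Share of loci (horizontal axis, %) by the lists that hold them (vertical axis), for the 128 loci of the 14 to 31 Mb stretch and the 1077 loci of the 32 to 36 Mb flank, with the number of loci beside each bar. Loci in all 3 lists are 30.7% of the flank and 3.91% of the stretch, and loci of the cisplatin list alone are 27.6% and 57.8%. Shares over whole lists were not counted.

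Where both drugs gave exactly 1 region at a locus, the summits mostly lay close and the folds rose together. Loci are defined by overlap, so closeness of position is partly set in advance. In the flank there were 504 such loci. Their summits lay a median of 22 bp apart, and 352 (69.8%) were within 50 bp. The log2 folds had a Pearson correlation of 0.91 across these 504 loci. It is a description of sites that share the cell line and the caller, selected for being in both lists. Each list has its own background, so the correlation says nothing about which drug gave more signal. At these loci the median share of the whole list with a lower fold was 72.9% for cisplatin and 60.2% for Pt-ttpy. The cisplatin region was the wider at 287 loci and the Pt-ttpy region at 211. In the stretch 22 loci had 1 region of each drug, with a median summit distance of 26.5 bp.

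**Figure D5:**
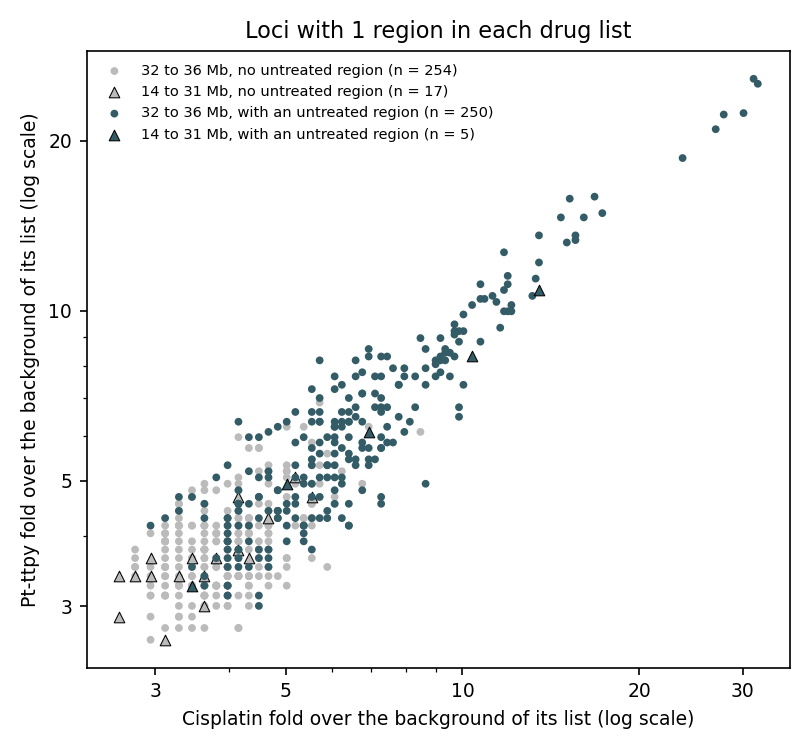
Fold of the Pt-ttpy region (vertical axis, log scale) against fold of the cisplatin region (horizontal axis, log scale) at loci with 1 region in each drug list, each fold over the background of its own list. Circles are flank loci and triangles loci of the stretch, and dark symbols have an untreated region at the locus. The 254 flank loci without an untreated region reach 8.48 for cisplatin and 6.88 for Pt-ttpy, and the 250 with one reach 31.8 and 25.8.

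The lists of both platinum complexes, given for the same time at doses set by their own IC80, were closer in number in the flank than in the stretch. The number of cisplatin regions per Pt-ttpy region was 1.17 in the flank and 1.84 in the stretch, against 1.44 over whole lists. By block of the stretch the ratio was 2.12, 6, 1.80, 1.75 and 1.83, the second from counts of 6 and 1. In the large block of the flank it was 1.19, in the small dense block 0.912 and at the gap edge 1.07. The covered length ratio was 1.13 in the flank and 1.83 in the stretch. With 1 list per drug and lists of unequal length, a difference between the drugs cannot be told apart from one in calling depth.

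Against untreated, the stretch had 14.4 cisplatin and 7.86 Pt-ttpy regions per untreated region, ratios that rest on 7 untreated regions. With the missing untreated numbers added, the stretch would hold from 35 to 52 untreated numbers, which gives ratios from 1.94 to 2.89 for cisplatin and from 1.06 to 1.57 for Pt-ttpy. Whole lists gave 2.64 and 1.83 as deposited. Counted over all chromosomes against all 18049 untreated numbers, they gave 1.45 and 1.01, each below the range of the stretch.

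Other places rich in duplications or next to a centromere were set beside the flank. Chromosome 15 had 680 untreated, 1093 cisplatin and 928 Pt-ttpy regions between 20 and 34 Mb, with 1.18 cisplatin regions per Pt-ttpy region and 68.6% of cisplatin regions on Pt-ttpy ones, close to the 1.17 and 69.3% of the flank. Chromosome 17 had between 16 and 26 Mb 117, 231 and 189 regions, with a ratio of 1.22 and a share of 67.5%. On the other side of the chromosome 16 gap, from 46 to 51 Mb, there were 71, 78 and 72 regions, which covered 64.4, 79.4 and 78.1 kb. The widest of each list was 24366, 28752 and 28761 bp. All 71 untreated regions lay between 46385792 and 46500239, with a highest fold of 60.4, the highest of the untreated list. There 71.8% of cisplatin and 72.2% of Pt-ttpy regions lay on untreated ones, against 37.4% and 44.1% in the flank. These are descriptions of single lists, and no test of the differences was made.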

How the data were processed

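Chromatin immunoprecipitation for γH2AX was deposited as 3 peak lists in hg19. The submitters' processing notes name BWA 0.7.5 and MACS2 2.1.0. For calling settings, the control, reads that map to several places and replicates, the handling is not given in the sources used. The names of both treated lists also carry the abbreviation used for the untreated list, and no source used here says whether untreated reads were the control. If they were, treated regions off and on the untreated list would not be independent of it. The authors deposited for each region a fold enrichment ratio, a -log10 p-value, a -log10 q-value, a score (-log10 q times 10, without decimals) and a summit. Within a list each of the 181 to 186 distinct folds went with 1 p-value, so a fold refers to 1 background per list and not to local control signal.

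Regions were placed by midpoint, and positions are printed from 1. Overlap meant at least 1 bp. Named regions were the 3 widest and the 3 of highest -log10 q per stretch and list, those next to the limits, and the densest windows. Blocks, lone loci and the windows that differed between lists were chosen after values were seen. Members and lists were chosen with earlier results of these data known. No genome or annotation of hg19 was used here, so no genes or sequences are given. The code was tested on simulated regions. Analyses ran in Python 3.11.15 with pandas 2.3.3, numpy 2.4.6, matplotlib 3.10.9 and, for binomial intervals, scipy 1.17.1. Alternatives were a stricter q, merging, joined pieces, lists of equal length, a stricter overlap, other limits and summits in place of midpoints. Missing untreated numbers, for counts and densities, and the flank measured to its last region were added after the data were seen.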

Additional observations from a re-analysis of the deposited data

How the results depend on the processing

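Each of 30 results was recomputed under each alternative that applies to it, 151 values in all. A value counted as moved when it changed by more than 1.5 times or, for a share, left its exact 95% binomial interval. Of the 151, 92 did not move, and some of these could not. Joining pieces changed the untreated list alone, so values that rest on the treated lists only were fixed. The untreated list has 9709 regions, so with lists of equal length its own counts, density ratio and widths were fixed. Joining untreated pieces with the same number, placing by summit and measuring the flank to its last region moved none. The shares in the stretch rest on few regions. The density per Mb outside assembly gaps was not run, and no replicate could be left out. No paired analysis was possible because both samples of a group are tied to 1 list.

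With a -log10 q of at least 5, cisplatin members fell to 661 and Pt-ttpy members to 564, and the flank was 92.6 and 136.75 times as dense as the stretch. Ratios to untreated in the stretch were 5.80 and 3.40. Cisplatin on untreated was 13.8% in the stretch and 43.4% in the flank, Pt-ttpy on untreated 29.4% and 49.4%, and cisplatin on Pt-ttpy 73.4% in the flank. Untreated on cisplatin was 97.8% in the flank and untreated on Pt-ttpy 100% in the stretch.

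Merging within 1 kb left 171 untreated, 325 cisplatin and 287 Pt-ttpy regions, density ratios of 99.6, 13.5 and 22.2, and median flank widths of 534.5, 830.0 and 563.5 bp. In the flank untreated on cisplatin was 98.2%, cisplatin on untreated 40.5% and Pt-ttpy on cisplatin 77.5%.

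With 9709 top regions per list there were 536 cisplatin and 535 Pt-ttpy members and density ratios of 138 and 171. Ratios to untreated were 2.29 and 1.86 in the stretch and 1.05 and 1.05 in the flank, and cisplatin to Pt-ttpy turned in the flank, to 0.996. In the flank untreated on cisplatin was 87.3%, untreated on Pt-ttpy 89.7%, cisplatin on untreated 63.3%, Pt-ttpy on untreated 66.1% and cisplatin on Pt-ttpy 80.6%. In the stretch cisplatin on untreated was 25%, cisplatin on Pt-ttpy 50% and Pt-ttpy on untreated 38.5%. The cause of these moves was not tested beyond the shorter lists.

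With an overlap of at least 50% of both regions the flank shares were 36.6% (untreated on cisplatin), 40.6% (untreated on Pt-ttpy), 18.2% (cisplatin on untreated), 43.1% (cisplatin on Pt-ttpy), 23.6% (Pt-ttpy on untreated) and 50.4% (Pt-ttpy on cisplatin). In the stretch cisplatin on Pt-ttpy was 15.8% and Pt-ttpy on cisplatin 29.1%. With the flank from 32 to 34 Mb the density ratios were 506, 74.1 and 113.9. With missing untreated numbers added, the ratios in the stretch were 2.89 and 1.57 with the fewest and 1.94 and 1.06 with the most, and the untreated density ratio was 89.25 and 58.8.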
